A study of Mus musculus with 4 samples.

Results

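The heat shock and chaperone genes described here were Hspa1a, Hspa1b, Hsph1, Hsp90aa1, Hsp90ab1, Dnajb1, Dnaja1, Hspa8, Hspe1 and Hspd1, 10 of the 24418 genes listed in the deposited table, chosen by symbol. All 10 were among the 11392 genes that were tested, which reached a normalized count (reads over a per-library size factor) of 10 or more in 2 or more libraries. They were read as a measure of stress from cell handling. They were therefore compared between treatments and also between the replicates of each group.

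RNA was sequenced from regulatory T (Treg) cells, the Foxp3-expressing CD4+ T cells that restrain immune responses. The mice were young adult Foxp3 YFP-Cre animals, and YFP+ cells were sorted from their lymph nodes and spleens. In these mice the Foxp3 locus drives a fluorescent Cre recombinase that all 4 libraries share. The sorted cells were held for 3 h with TSLP (thymic stromal lymphopoietin, a cytokine of epithelial cells) or with PBS, a buffer, and each group has 2 libraries, called PBS 1, PBS 2, TSLP 1 and TSLP 2. Whether a number marks a shared animal, culture or day is not given in the sources used here, so p-values measure only the spread between these libraries, which may be technical. The PBS 1 library held 11328132 reads on genes, PBS 2 held 10724392, TSLP 1 held 11761234 and TSLP 2 held 10271571. Genes with a read were fewest in PBS 1, at 11484, against 12355 in PBS 2, 12244 in TSLP 1 and 11937 in TSLP 2.

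The cells carried Treg markers, and PBS 1 stood apart in some of them. Foxp3, which encodes the transcription factor that defines Treg cells, had 2514 and 5065 reads in PBS 1 and PBS 2, and 4784 and 4824 in TSLP 1 and TSLP 2. Ikzf2, which encodes Helios, had 6432 reads in PBS 1 and 9786 to 11715 in the other 3 libraries, whereas Ctla4, an inhibitory receptor, had 12245 to 14544 reads in all 4. Tnfrsf18, which encodes the receptor GITR, went the other way, with 5839.7 normalized counts in PBS 1 and 3737.9 to 4580.5 in the other 3. In bulk RNA, fewer cells of a type and less RNA per cell cannot be told apart. Summed over the 3 markers of CD8 T cells the level was 7.833 to 13.42 cpm (reads scaled to library depth). Over the 4 of B cells it was 0.6179 to 10.44 cpm. Over the 6 of myeloid cells it was 40.1 to 61.53 cpm, most of it from Cst3. Gzmk and Adgre1 were at 0 in every library. The B cell gene Cd79b had 7 and 61 reads in PBS 1 and PBS 2, and 20 and 87 in TSLP 1 and TSLP 2. In the same order the myeloid gene Cd68 had 174, 66, 59 and 16 reads, and Lyz2 had 1, 43, 37 and 40. Within each group replicate 1 was thus lower in Cd79b and Lyz2 and higher in Cd68. In Cd8a, Cd8b1, Cd79a and Itgam the direction differed between the groups. The 6 erythroid markers summed to at most 1.501 cpm, with the 4 haemoglobin genes at 0 in every library, where a count of 0 allows up to 3 reads, or 0.255 to 0.292 cpm.

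Heat shock proteins are chaperones that hold or refold other proteins. HSP70 proteins bind exposed stretches of a client, J-domain proteins (HSP40) deliver clients and drive the HSP70 ATPase, HSP110 exchanges the nucleotide, and HSP90 takes over clients such as kinases and receptors, while HSP60 and HSP10 form the folding chamber of mitochondria. When unfolded protein accumulates, heat shock factor 1 binds heat shock elements, alternating repeats of the letters GAA and TTC, and induces the stress genes. Some members, such as Hspa8 and Hsp90ab1, are made in nearly all cells at all times, whereas Hspa1a, Hspa1b and Dnajb1 are classic inducible genes, known to respond when tissue is dissociated and cells are sorted.

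Promoter windows, 250 bases before to 50 after a start site, were available from RefSeq (GRCm38.p6) for 7 of the 10 members in 12 windows. The letters GAANNTTC or TTCNNGAA, each of which reads the same on both strands, were in at least 1 window of 6 of these 7 genes, against 16.97% of 27025 genes with a window. The longer GAANNTTCNNGAA or TTCNNGAANNTTC, which overlap the shorter letters and are the reverse complement of each other, were in windows of 3 of the 7, Hsph1, Hspe1 and Hspd1, against 0.66% of all genes. Neither was in the 2 windows of Dnajb1. The windows printed here are those of the pair with the largest fitted difference between replicates (Hspa1a and Hspa1b), and for contrast those of a gene that stayed nearly level (Hsph1) and of the gene that varied most from library to library without following the replicate number (Hspe1). Capitals mark the matched letters. They lie at chr17:34972107-34972406 (minus strand), chr17:34959189-34959488 (minus), chr5:149636287-149636586 (minus) and chr1:55087898-55088197 (plus).
Hspa1a: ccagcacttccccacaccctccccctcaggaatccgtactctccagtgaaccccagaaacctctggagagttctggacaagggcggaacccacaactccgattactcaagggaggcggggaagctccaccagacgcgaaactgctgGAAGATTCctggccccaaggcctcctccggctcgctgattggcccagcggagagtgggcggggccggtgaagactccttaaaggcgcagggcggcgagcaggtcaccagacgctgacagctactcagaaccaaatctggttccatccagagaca
Hspa1b: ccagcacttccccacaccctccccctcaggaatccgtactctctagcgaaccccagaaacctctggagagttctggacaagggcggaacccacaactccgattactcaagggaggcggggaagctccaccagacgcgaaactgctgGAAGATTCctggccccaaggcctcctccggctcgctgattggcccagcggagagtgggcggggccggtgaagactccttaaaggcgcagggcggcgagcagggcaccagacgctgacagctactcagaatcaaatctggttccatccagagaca
Hsph1: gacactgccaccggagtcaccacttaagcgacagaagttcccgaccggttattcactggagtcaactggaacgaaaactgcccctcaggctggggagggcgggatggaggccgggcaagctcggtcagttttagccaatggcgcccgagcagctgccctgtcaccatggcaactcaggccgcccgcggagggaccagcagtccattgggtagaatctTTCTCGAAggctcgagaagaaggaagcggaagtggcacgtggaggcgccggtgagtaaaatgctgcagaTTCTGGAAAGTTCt
Hspe1: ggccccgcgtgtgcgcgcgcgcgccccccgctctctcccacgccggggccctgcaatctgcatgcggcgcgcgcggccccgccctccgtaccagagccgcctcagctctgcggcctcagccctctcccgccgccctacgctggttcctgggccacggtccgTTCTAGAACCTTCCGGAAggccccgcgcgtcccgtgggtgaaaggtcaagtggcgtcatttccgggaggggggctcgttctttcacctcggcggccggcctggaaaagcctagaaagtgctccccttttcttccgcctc
The windows of Hspa1a and Hspa1b were identical at 296 of 300 bases, and each held the short letters once, as GAAGATTC, starting 104 bases before the start site. In Hspe1 the match was an unbroken run of 18 bases, chr1:55088059-55088076, in which the short letters occur 3 times and the long ones 2 times, overlapping. Hspe1 and Hspd1 are transcribed away from each other, and the same run read on the other strand lies in a window of Hspd1. A match is a description of the letters, and binding was not measured.

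In level, the constitutive HSP90 and HSP70 genes led. Hsp90ab1, the constitutive cytosolic HSP90 (chr17:45567775-45573271, minus strand), took 48.17% to 51.62% of all reads of the 10 members, and the members together took 1.224% and 0.8982% of the reads on genes in PBS 1 and PBS 2, and 1.065% and 0.9481% in TSLP 1 and TSLP 2. In RPKM, reads scaled by exon length and library depth, Hsp90ab1 reached 1715.8 ± 187.3 (SD over the 4 libraries), Hspa8, the constitutive HSC70 (chr9:40800984-40810087, plus), 432.4 ± 82.42 and Hsp90aa1, the inducible HSP90 (chr12:110690605-110702728, minus), 273.6 ± 34.52. The ranges of these top genes over the libraries did not overlap each other.

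Below them came a group whose RPKM ranges overlapped. Hspa1b (chr17:34956436-34959238, minus) had a mean of 115.1 RPKM, Dnajb1 (chr8:83608193-83612653, plus) 112.8, Hspa1a (chr17:34969190-34972156, minus) 100.1 and Hsph1, the HSP110 gene (chr5:149614287-149636376, minus), 96.28. Hspd1, which encodes HSP60 (chr1:55077835-55088243, minus), followed at 62.9 RPKM, within the range of Hspa1a and below those of the other 3. Dnaja1, a J-domain protein that also works with HSC70 (chr4:40722150-40737149, plus), at 41.39 and Hspe1, which encodes HSP10 (chr1:55088132-55091307, plus), at 36.69 were lowest and overlapped. Coordinates are those of GRCm38 with the GENCODE M21 annotation, and intervals run over whole genes.

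These levels depend on how reads that map to several places were counted, which is not given in the sources used here. Of the 50-base windows of its transcript, the length of a read, 33.7% of Hspa1a and 37.7% of Hspa1b occurred in no other gene's transcripts, and the pair shared 1716 windows with each other. The share was 25.2% for Hspa8, most of whose windows recur in the pseudogene Gm15459, 41.5% for Hsp90aa1, 55.2% for both Hspe1 and Hspd1 and 71.2% for Dnaja1, but 95.5% for Hsp90ab1, 99.6% for Dnajb1 and 100% for Hsph1. Divided by unique windows in place of exon length, a scale added after the data were seen, Hspa8 came first, at 34.91 reads per window, and Hsp90ab1 second, at 24.11. On this scale Hspe1 moved from rank 10 to rank 7, Dnajb1 from 5 to 9 and Dnaja1 from 9 to 10. The split of reads between Hspa1a and Hspa1b is uncertain, and their sum was 10683.0 and 4625.3 normalized counts in PBS 1 and PBS 2, and 7516.9 and 4249.2 in TSLP 1 and TSLP 2. Hspe1 and Hspd1 overlap at their starts on opposite strands. Hspa1a also overlaps Gm20481, and Dnaja1 overlaps Smu1 and Gm6297, on opposite strands. The strand setting of the counting is not given either.

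**Figure D1:**
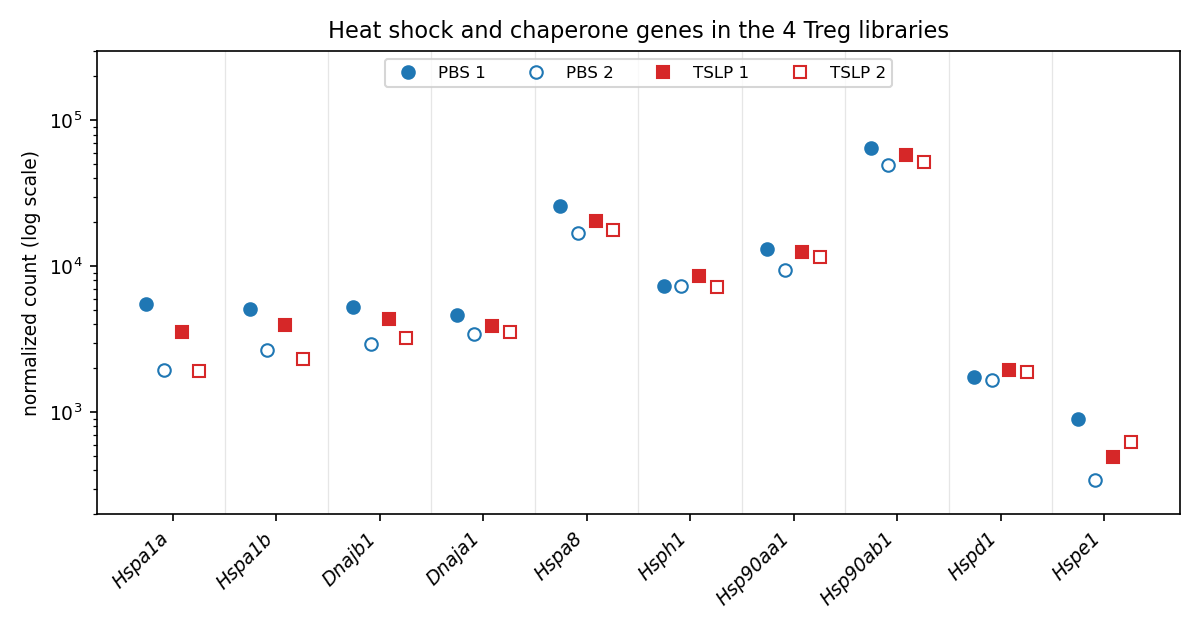
Normalized count (log axis) of each member in the 4 libraries, with PBS as circles, TSLP as squares, replicate 1 filled and replicate 2 open. The filled symbols lie above the open ones for 8 of the 10 genes, from Hspa1a (5551.8 and 3572.4 against 1944.0 and 1918.7) to Hsph1, and not for Hspe1 and Hspd1. For Hsph1 the PBS libraries differ only within counting error.

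TSLP left no member past the test. In the fit across all genes (limma on log2(normalized count + 1)), 0 of the 10 members and 0 of the 11392 genes (0.0%) had an adjusted p (Benjamini-Hochberg) under 0.05, and the smallest adjusted p of any gene was 0.9999. At an unadjusted p under 0.05 the count was 0 of 10 members against 192 genes, or 1.69% of all. By edgeR and by DESeq2 on the recovered reads the adjusted count was also 0, and the unadjusted counts were 234 and 234. The fitted log2 difference, TSLP minus PBS, ran from -0.33 in Hspa1a to 0.17 in Hspd1, with 4 members above 0 and 6 below and a median of -0.06, beside a median of 0.01 over all genes tested.

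Among the inducible genes the spread within a group exceeded the difference between groups. Hspa1a had 5551.8 and 1944.0 normalized counts in PBS 1 and PBS 2, and 3572.4 and 1918.7 in TSLP 1 and TSLP 2. TSLP 1 lay between the PBS libraries and TSLP 2 just under PBS 2, and the group means were 3747.9 ± 2551.1 with PBS and 2745.5 ± 1169.3 with TSLP (SD, n = 2). The fitted difference, taken between means of log2 values, was -0.33 (SE 0.46, limma adjusted p = 0.9999). Without PBS 1 the difference was 0.43 in the other direction, and for 6 members in all the sign turned without that library. Hspa1b had 5131.2, 2681.4, 3944.5 and 2330.5 normalized counts in PBS 1, PBS 2, TSLP 1 and TSLP 2, and differed by -0.29 (SE 0.35, limma adjusted p = 0.9999). Again the highest and the second highest library were those numbered 1.

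Hspd1 was the single member whose TSLP and PBS libraries did not overlap, where 28.9% of all genes do not overlap in one direction or the other. Its PBS libraries held 1733.0 and 1667.8 normalized counts and its TSLP libraries 1940.7 and 1892.6, which made a log2 difference of 0.17 (SE 0.21, limma adjusted p = 0.9999). The means were 1700.4 ± 46.08 and 1916.6 ± 34.0 (SD, n = 2), and an exact permutation test of 2 against 2 libraries cannot go below a two-sided p of 0.333. Its partner Hspe1, with 892.7 and 342.2 normalized counts under PBS and 497.4 and 624.9 under TSLP, had both TSLP libraries between the PBS libraries.

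Library by library, the comparison of TSLP with PBS changed with the pair. TSLP 1 was below PBS 1 for 8 of 10 members, with a median log2 ratio of -0.26, and past 1.5-fold lower for 2, Hspa1a (0.6435-fold, 95% counting interval 0.6174 to 0.6705) and Hspe1 (0.5572-fold, 0.4997 to 0.6208), where 18.8% of all genes were past 1.5-fold lower and 21.9% past 1.5-fold higher. TSLP 2 was above PBS 2 for 7 of 10, with a median of 0.06, and past 1.5-fold only for Hspe1, which was higher (1.826-fold, 1.596 to 2.092), where 13.6% of all genes were past that fold upwards and 14.8% downwards. Hspa1a stood at 0.987-fold in this second pair (0.9255 to 1.053), within counting error. These are ratios between single libraries with no replicate, and the exact binomial intervals cover counting error only.

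Between replicates nearly all members leaned one way. PBS 1 exceeded PBS 2 for all 10 members, with a median log2 ratio of 0.54, and 5 of them, Hspa1a, Hspa1b, Dnajb1, Hspa8 and Hspe1, were past 1.5-fold higher, where 19.8% of all genes were past that fold upwards and 23.2% downwards. TSLP 1 exceeded TSLP 2 for 9 of 10, all but Hspe1, with a median of 0.19, Hspd1 (1.025-fold, 0.9622 to 1.093) being within counting error. Hspa1a and Hspa1b were past 1.5-fold higher in this pair, where 14.5% of all genes were past it upwards and 14.8% downwards. No member was past 1.5-fold lower in either pair. The share of all genes on each side of 1, without a fold limit, was not counted for any pair of libraries.

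**Figure D2:**
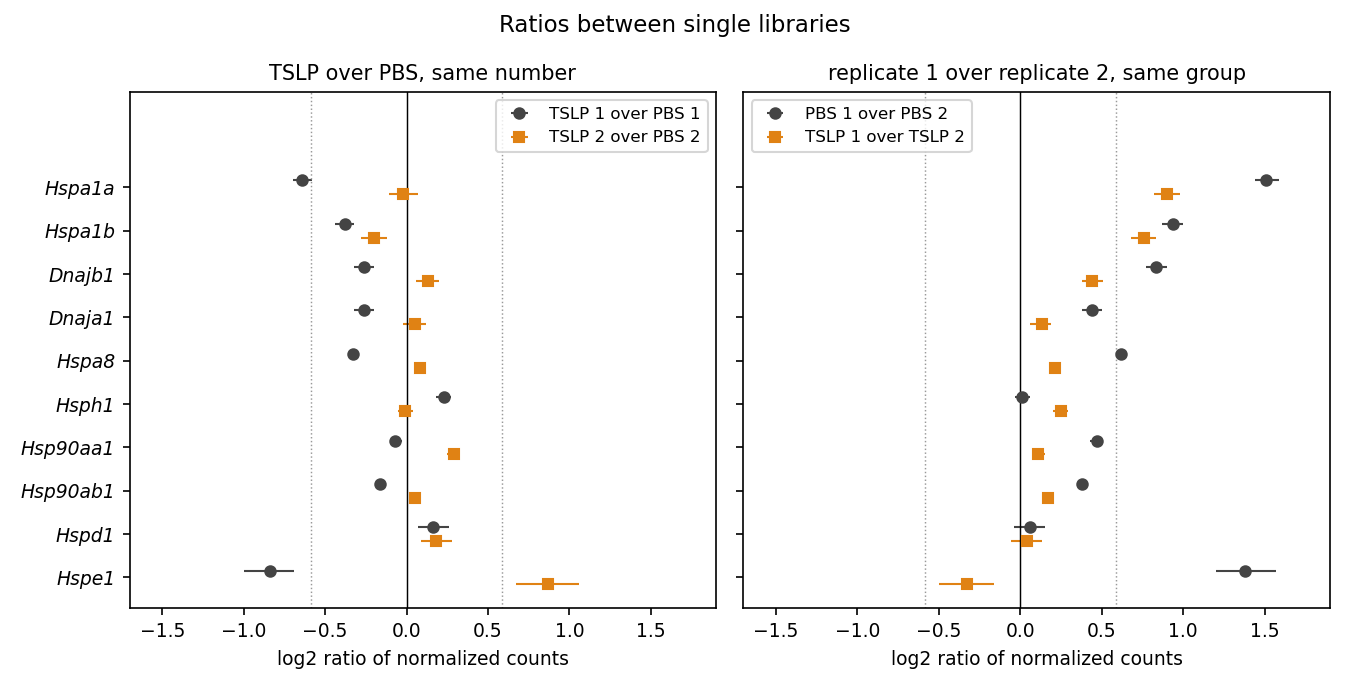
Log2 ratio of normalized counts for each member between single libraries, TSLP over PBS of the same number on the left and replicate 1 over replicate 2 of the same group on the right, with bars for the 95% counting interval and dotted lines at 1.5-fold. On the right all points but one, Hspe1 in TSLP at -0.33, are at or above 0, while on the left the points lie on both sides.

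Over both groups together, both libraries numbered 1 lay above both numbered 2 for 8 of 10 members, all but Hspe1 and Hspd1, where 17.2% of all genes did so. For Hsph1 among them, PBS 1 was above PBS 2 only within counting error, at 7350.8 against 7276.7 normalized counts. In the fit with treatment and replicate number, 0 genes (0.0%) reached an adjusted p under 0.05 by limma with Benjamini-Hochberg adjustment, and 455 genes had an unadjusted p under 0.05. Of these, 209, or 1.83% of all genes, were higher in replicate 1, and 3 of them were members. The other 246 were lower in replicate 1, with 0 members among them. The adjusted count was also 0 by edgeR, with 424 genes at an unadjusted p under 0.05, but 4 by DESeq2, with 463. The members' median difference, replicate 1 minus replicate 2, was a log2 of 0.35, beside -0.02 over all genes tested.

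The 3 members were the inducible Hspa1a, Hspa1b and Dnajb1. Hspa1a averaged 4562.1 ± 1399.7 normalized counts in replicate 1 and 1931.4 ± 17.86 in replicate 2 (SD, n = 2), and the fitted difference between means of log2 values was 1.20 (SE 0.26), or 2.305-fold. Its unadjusted p was the smallest of the 11392 genes, and its adjusted p was 0.9524 by limma with Benjamini-Hochberg adjustment. With both terms fitted to so few libraries, this p rests largely on the variance that limma shares across genes. An exact permutation test of 2 against 2 libraries cannot go below a two-sided p of 0.333 here either. Among the 2716 genes whose mean normalized count was 1000 or more, no other gene had a replicate difference as large in this direction. PBS 1 over PBS 2 was 2.856-fold (95% counting interval 2.712 to 3.008) and TSLP 1 over TSLP 2 was 1.862-fold (1.76 to 1.97), so that PBS 1 was highest, TSLP 1 next, and the libraries numbered 2 nearly equal.

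The call on Hspa1a depended on the test. DESeq2 on the recovered reads gave an adjusted p of 0.03043 and limma restricted to normalized counts of 100 or more an adjusted p of 0.03303 (both Benjamini-Hochberg), and across the 14 fits the adjusted p ran from 0.03043 to 0.9999 with a log2 difference of 0.89 to 1.52. Without PBS 1 the difference was 0.89 in a fit on replicate number alone, with a limma adjusted p of 0.9584, and with treatment kept it was that of TSLP 1 against TSLP 2, 0.90, with no test. The other genes that DESeq2 called, named after their values were seen, were Gadd45b, a stress-inducible gene, at a log2 of 1.10, Ppp1r15a at 1.02 and Eps8l1 at 3.80.

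Hspa1b averaged 4537.8 ± 839.1 normalized counts in replicate 1 and 2505.9 ± 248.1 in replicate 2 (SD, n = 2), a log2 difference of 0.85 (SE 0.25, limma adjusted p = 0.9524). Dnajb1, the J-domain partner of inducible HSP70, had 5234.9 and 2941.5 normalized counts in PBS 1 and PBS 2, and 4374.1 and 3220.9 in TSLP 1 and TSLP 2. Its log2 difference was 0.64 (SE 0.26, limma adjusted p = 0.9524). In both genes the libraries numbered 1 were clear of those numbered 2. Among the 2716 abundant genes, 11 had a difference at or above that of Hspa1b, itself included, and 36 at or above that of Dnajb1. Without PBS 1, in a fit on replicate number alone, Hspa1b stood at 0.66 and Dnajb1 at 0.51. With treatment kept, which leaves TSLP 1 against TSLP 2 and no test, they stood at 0.76 and 0.44.

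Hspa8, Dnaja1 and the HSP90 genes, of which Hsp90aa1 is also inducible, showed smaller differences of the same sign, none past the test. Hspa8 had 25917.7 and 20550.5 normalized counts in PBS 1 and TSLP 1, and 16837.5 and 17768.1 in PBS 2 and TSLP 2, a log2 difference of 0.42 (SE 0.36, limma adjusted p = 0.9524). Dnaja1 was 0.28 higher in replicate 1 (SE 0.25), with 4659.2, 3437.7, 3897.4 and 3563.7 normalized counts in PBS 1, PBS 2, TSLP 1 and TSLP 2. The HSP90 genes were alike in this, Hsp90aa1 at 0.29 (SE 0.31) and Hsp90ab1 at 0.28 (SE 0.48). Hsp90ab1 ranged from 49750.2 normalized counts in PBS 2 to 64739.9 in PBS 1, and Hsp90aa1 from 9498.8 to 13175.0 in the same libraries.

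Hsph1 and the mitochondrial pair did not show the pattern of Hspa1a, Hspa1b and Dnajb1. Hsph1 had 7350.8 and 7276.7 normalized counts in PBS 1 and PBS 2, and 8595.5 and 7243.3 in TSLP 1 and TSLP 2, with TSLP 1 the single high library and a log2 difference of 0.13 between replicates (SE 0.28). Hspd1 varied least, its highest library being 1.164-fold its lowest, and differed by 0.05 (SE 0.24) between replicates. Hspe1, which shares its start region with Hspd1, varied 2.609-fold from PBS 2 to PBS 1 and differed by 0.53 (SE 0.37, limma adjusted p = 0.9524), with 342 to 921 reads, the fewest of the members. That difference rested on single libraries. In fits on replicate number alone it was 0.10 without PBS 1, 0.09 without PBS 2, 0.95 without TSLP 1 and 0.96 without TSLP 2, and with treatment kept it turned to -0.33 without either PBS library.

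The other chaperone and stress lists divided in the replicate comparison. In none of them did a gene reach an adjusted p under 0.05 for TSLP or for replicate number by limma with Benjamini-Hochberg adjustment. Of the 4 genes for heat shock factors and their binding protein, 0 had an unadjusted p under 0.05, and the median replicate difference was -0.02. Hsf1, the factor that induces heat shock genes, had 1026.4 and 1217.6 normalized counts with PBS and 862.9 and 899.8 with TSLP. Both TSLP libraries were lower for all 4 of these genes, a lack of overlap that 28.9% of all genes show in one direction or the other, with a median log2 difference of -0.34, Hsf1 being at -0.34 (SE 0.23, limma adjusted p = 0.9999), Hsf2 at -0.34, Hsbp1 at -0.21 and the scarce Hsf4 at -1.63.

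In the lists of other J-domain genes, of cochaperones and of chaperonin and prefoldin subunits, genes lay on both sides of 0 between replicates. Of the 26 other J-domain genes, 12 were higher and 14 lower in replicate 1, with a median difference of -0.02. Both libraries numbered 1 were above both numbered 2 for 7 of them and below for 3, where 17.2% of all genes were above. At an unadjusted p under 0.05, at which 1.83% of all genes were higher in replicate 1, 2 were higher and 0 lower, Dnajb5 at 1.26 (SE 0.41) and Dnajb6 at 0.71 (SE 0.26), while the most abundant, Dnaja2 and Dnajc5, stood at 0.26 and -0.04. The 26 cochaperones of HSP70 and HSP90, 14 of them higher and 12 lower, had a median of 0.05. At that p 0 were higher and 1 lower (Bag4, -0.76), where 246 of the 11392 genes were lower. Their most abundant genes Bag6 and St13 were at -0.05 and 0.00. The 14 tested subunits of the chaperonin CCT and of prefoldin, which fold actin and tubulin, had a median of 0.00, with 6 higher and 8 lower and no gene at that p. Their most abundant genes, Cct2 and Cct5, were at 0.01 and 0.27. In the TSLP fit, Pfdn6 was the single gene of all these chaperone lists at an unadjusted p under 0.05, where 1.69% of all genes were. It had 462.3, 394.2, 245.9 and 232.0 normalized counts in PBS 1, PBS 2, TSLP 1 and TSLP 2 (log2 -0.84, SE 0.31, limma adjusted p = 0.9999).

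Of 6 other HSP70 and HSP110 genes tested, 5 were higher in replicate 1, with a median of 0.17, and 3 had both libraries numbered 1 above both numbered 2 (17.2% of all genes). At an unadjusted p under 0.05 Hspa2 was higher in replicate 1 (0.77, SE 0.34), with 555.4 and 397.6 against 307.2 and 247.7 normalized counts, and the abundant Hspa4 and Hspa4l were at 0.19 and -0.14. Of 13 mitochondrial chaperones and proteases, 0 were higher and 1, Grpel2, was lower in replicate 1 at an unadjusted p under 0.05 (-1.16, SE 0.45). Of the 11392 genes, 246 were lower at that p. The median of this list was 0.11, with the abundant Hspa9 and Yme1l1 at 0.16 and -0.30. Only 2 of 9 small heat shock genes passed the filter, 4 had no read in any library, and Hspb9, Cryaa and Cryab each had reads in a single library. Hspb1 had 90 and 21 reads in PBS 1 and PBS 2, and 23 and 0 in TSLP 1 and TSLP 2, a fitted difference of 3.25 between replicates (SE 1.45, limma adjusted p = 0.9524) that had an unadjusted p under 0.05, with 1 library at 0 reads. Hspb6 had 14, 14, 47 and 14 reads in the same order.

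Chaperones of the endoplasmic reticulum and genes of early stress transcription were mostly higher in replicate 1. Of 20 reticulum chaperones, 19 were higher in replicate 1, 12 had both libraries numbered 1 above both numbered 2 (17.2% of all genes), and 2 were higher and 0 lower at an unadjusted p under 0.05 (1.83% of all genes higher), with a median of 0.28. Hspa5, which encodes the reticulum HSP70 called BiP, had 22516.6 and 13279.7 normalized counts in PBS 1 and PBS 2, and 18655.1 and 13245.1 in TSLP 1 and TSLP 2, a difference of 0.63 (SE 0.33, limma adjusted p = 0.9524). The lectin chaperone Calr was at 0.52 (SE 0.30), and the 2 genes at that p were Creld2 at 0.89 (SE 0.34) and Herpud1 at 0.73 (SE 0.26).

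Of 16 stress response genes tested, 12 were higher and 4 lower in replicate 1, with a median of 0.39. Both libraries numbered 1 were above both numbered 2 for 7 and below for 2 (17.2% of all genes above), and 3 were higher and 0 lower at an unadjusted p under 0.05 (1.83% of all genes higher). Ppp1r15a, which encodes GADD34, a phosphatase subunit that restores translation after stress, had 19012.8 and 14719.0 normalized counts in replicate 1 and 8788.4 and 7692.7 in replicate 2, a difference of 1.02 (SE 0.31). As for Hspa1a the call depended on the test, with a limma adjusted p of 0.9524 and a DESeq2 adjusted p of 0.02448. Atf3 was at 0.82 (SE 0.24), Ddit4 at 0.72 (SE 0.27) and the abundant Sqstm1, which encodes an autophagy receptor, at 0.31 (SE 0.28). Of 20 immediate early genes, which are transcribed within minutes of a stimulus, 17 were higher in replicate 1 and the median was 0.45. Both libraries numbered 1 were above both numbered 2 for 14 and below for 1 (17.2% of all genes above), and 6 were higher and 0 lower at an unadjusted p under 0.05 (1.83% of all genes higher).

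Fos had 10585.2 and 4723.4 normalized counts in PBS 1 and PBS 2, and 7481.1 and 4264.9 in TSLP 1 and TSLP 2, a difference of 0.99 (SE 0.27, limma adjusted p = 0.9524). As in Hspa1a, PBS 1 was highest, TSLP 1 next and TSLP 2 lowest. Ier2 was at 0.78 (SE 0.26), Fosb at 0.77 (SE 0.27) and Dusp2 at 0.64 (SE 0.25), while the most abundant genes Nr4a1 and Nr4a3 were at 0.54 and 0.10. For comparison, 12 housekeeping genes had a median of 0.16, with 8 higher and 4 lower in replicate 1 and 0 at an unadjusted p under 0.05. B2m was at 0.15 and Rplp0 at 0.35. These 2 genes were at 0.57 and 0.64 between the PBS libraries, and at -0.27 and 0.05 between the TSLP libraries. Foxp3 had a fitted difference of -0.61 (SE 0.28). That of Foxp3 came mostly from PBS 1, being -1.06 between the PBS libraries and -0.16 between the TSLP libraries. With TSLP the medians of the reticulum, stress and immediate early lists were -0.08, -0.05 and -0.17, with 0 genes at an unadjusted p under 0.05. Among the scarce markers of other cell types, Cd79b was at -2.6 (SE 1.01) and Lyz2 at -2.37 (SE 1.37) between replicates. Cd68 was at 1.51 (SE 0.75). The part that Foxp3, the immediate early genes, these markers or other differences between the libraries have in the members' values was not tested.

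**Figure D3:**
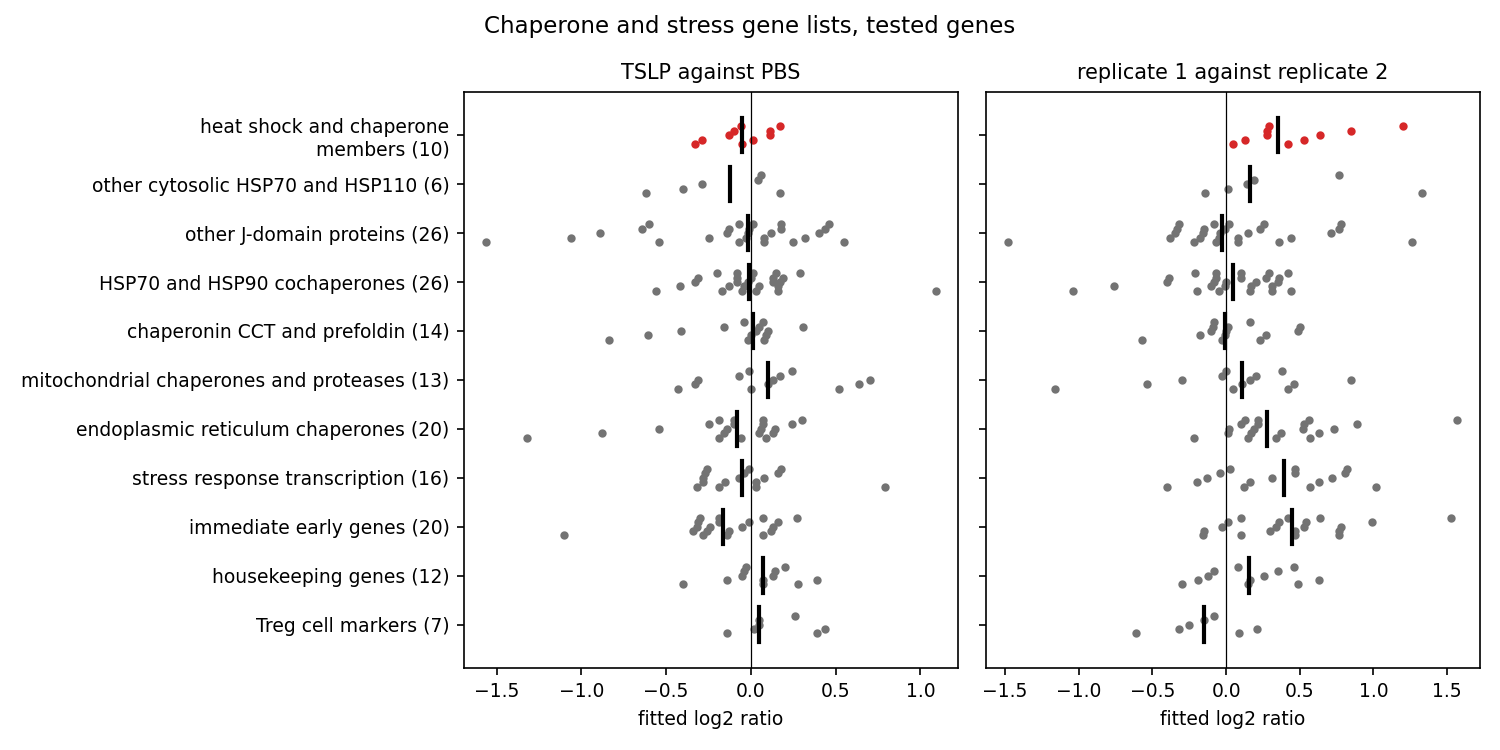
Fitted log2 ratio of each tested gene, with a vertical bar at the list's median, for TSLP against PBS on the left and replicate 1 against replicate 2 on the right, with the number of tested genes in brackets. The heat shock factors, the small heat shock genes and the markers of other cell types are not plotted. Of the lists plotted, the medians of the members (0.35), of stress response transcription (0.39) and of immediate early genes (0.45) lie farthest from 0 on the right, and those on the left lie between -0.17 and 0.10.

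In each of 14 fits the replicate difference stayed above 0 for all members but Hspd1, down to 0.02 in Hsph1. For Hspa1a, Hspa1b and Dnajb1 it lay between 0.89 and 1.52, 0.66 and 1.04, and 0.51 and 0.77. The fits with 1 library left out were on replicate number alone. Where both libraries numbered 1 lie above both numbered 2, as in these genes, leaving out a library cannot turn the sign. With the trend of the differences on exon length removed, the members' median replicate difference was 0.45, with Hspa1a at 1.20 and Dnaja1 at 0.47. For the treatment difference, leaving out a library turned the sign of 9 of the 10 members at least once, all but Hspd1, which ran from 0.15 to 0.20.

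**Figure D4:**
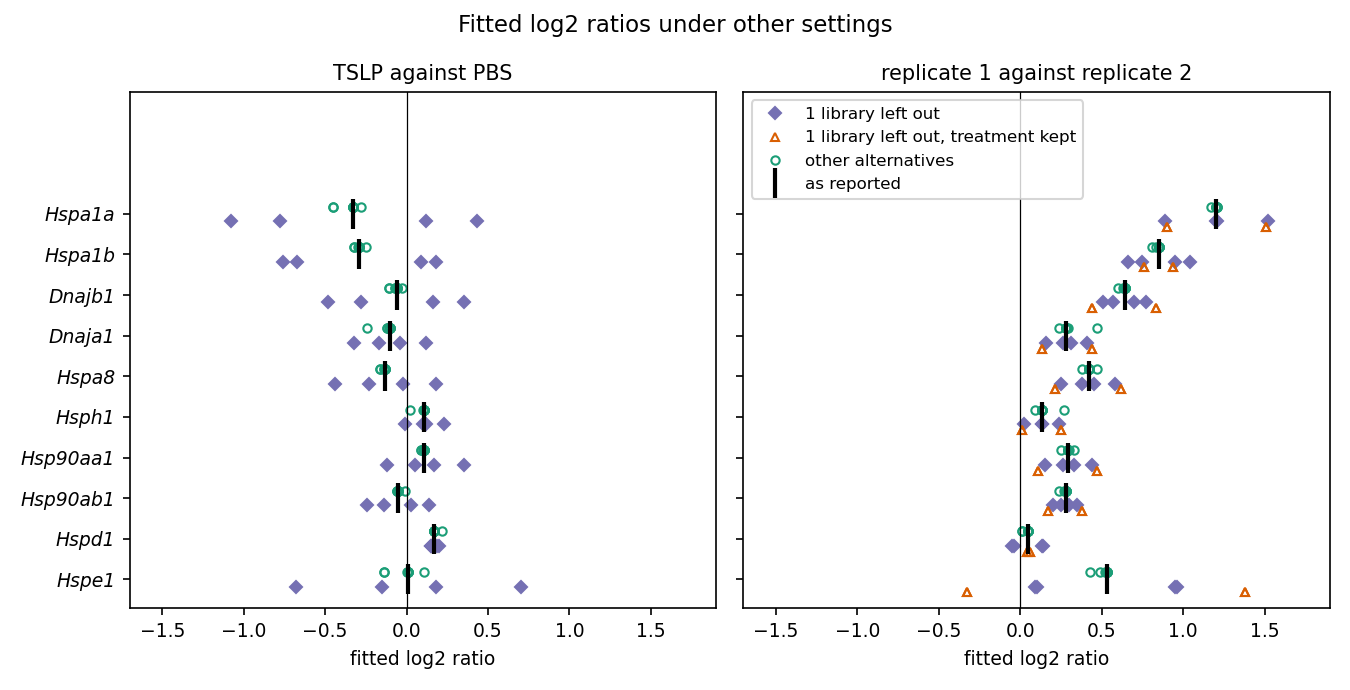
Fitted log2 ratio of each member as reported (black bar), with 1 library left out (diamonds, without a treatment term on the right), with 1 left out and treatment kept (triangles, on the right, with no test) and under the other alternatives (open circles), for TSLP against PBS on the left and replicate 1 against replicate 2 on the right. The diamonds lie on both sides of 0 on the left for all members but Hspd1, while on the right those of Hspd1 and the triangles of Hspe1, at -0.33 and 1.38, do so.

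The 5 genes outside these chaperone lists whose pattern over the 4 libraries was nearest to that of the members were Ppib, Ppp2r2a, Zfand2a, Derl1 and Trappc6b, of 8065 candidates. Likeness was the Euclidean distance between log2 values centred on the gene's mean and the members' median profile, which was 0.32 and -0.27 in PBS 1 and PBS 2, and 0.11 and -0.11 in TSLP 1 and TSLP 2. The distances ran from 0.038 for Ppib to 0.053 for Trappc6b. Zfand2a, itself a gene known to respond to heat shock and arsenite, had 1423.8 and 934.5 normalized counts in PBS 1 and PBS 2, and 1224.7 and 1012.7 in TSLP 1 and TSLP 2. Ppib, a cyclophilin of the endoplasmic reticulum, had 410.0, 270.1, 358.9 and 308.3 in the same order.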

How the data were processed

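RNA was sequenced from sorted Treg cells held for 3 h with TSLP or PBS, 2 libraries per group. Per the labels, the authors mapped reads to mm10 with HISAT2, counted them with HTSeq and used DESeq2. The deposited values are a signal, namely reads per gene that the authors had scaled by per-library size factors, and 100% of them came out as whole reads within 0.01. The gene annotation and the handling of reads mapping to several places are not given in the sources used here. In the gene column 27 names had turned into dates.

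Differences were fitted with limma 3.58.1 (R 4.3.3) on log2(normalized count + 1), over genes that reached a normalized count of 10 or more in 2 or more libraries, with treatment alone or, for replicate number, treatment and number. A fold change on this scale understates that of low genes. P-values are two-sided and adjusted over all 11392 genes by the Benjamini-Hochberg method. On the recovered reads, edgeR 4.0.16 called 0 genes in either comparison and DESeq2 1.42.0 called 0 for TSLP and 4 for replicate number. Ratios between single libraries carry an exact binomial 95% interval. The fits were tested on simulated data. Exon lengths and positions came from GENCODE M21, with 23307 of 24418 names having a unique length, and promoter sequences from RefSeq.

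The members and the other lists were chosen with earlier results of these data known. Named from the chaperone, stress, immediate early and housekeeping lists were the 2 most abundant genes and those at an unadjusted p under 0.05 in either fit (at most the 4 smallest p). The heat shock factors were all named, and of the small heat shock genes also those with reads in a single library. Markers of cell types were named in part and not strictly by this rule. Also named were the 5 genes nearest to the members' median profile. Other normalizations, filters, pseudocounts, tools, a length correction, a replicate block and leaving out each library were tried.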

Additional observations from a re-analysis of the deposited data

Results flagged for a closer look

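Hspe1, which encodes the mitochondrial chaperone HSP10, differed in opposite directions in the same-numbered pairs of libraries. Its log2 ratio was -0.84 for TSLP 1 over PBS 1 and 0.87 for TSLP 2 over PBS 2, both past 1.5-fold and beyond counting error. The difference between these ratios was not tested, since each comes from a single pair of libraries.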

How the results depend on the processing

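Of the main counts and medians, 99 values under alternatives stayed within 1.5 times the reported count, or within a margin of the reported median, and 13 did not. For TSLP the margin was 0.32, the spread of the members' median between replicates. For replicate number it was 0.26, from how far the 2 groups differed in the replicate difference. A median could change sign within its margin. The 99 include counts of 0 that stayed at 0 and the medians with treatment kept, chosen after seeing the data. Without the filter on low values, 358 genes had an unadjusted p under 0.05 for TSLP and 711 for replicate number. With 1 library left out, the lone library being assumed to vary like the others, these counts ran from 79 to 1858 and from 133 to 2257, and for replicate number the fit then also dropped treatment, since 3 libraries leave no residual degrees of freedom with both terms. The counts of members at that p ran from 0 to 2 (without PBS 2, Hspa8 and Hspe1) and from 1 to 5 (1 without TSLP 2 and 5 without TSLP 1, with Dnaja1 and Hspa8 added), and the members' median TSLP difference from -0.38 without PBS 2 to 0.19 without PBS 1. For replicate number, 4 genes passed an adjusted p under 0.05 by DESeq2 and 2 (Hspa1a and Gm4759) with a normalized count of at least 100. The replicate difference missed an unadjusted p under 0.05 in Dnajb1 without PBS 2 or without TSLP 2, at a log2 of 0.57 and 0.70, and in Hspa1b without TSLP 2, at 0.75. These left-out replicate fits had fewer samples and no treatment term.

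The TSLP difference in Hspe1 was -0.14 by edgeR and -0.14 by DESeq2, against 0.01. With 1 library left out it ran from -1.08 to 0.43 in Hspa1a, -0.76 to 0.18 in Hspa1b, -0.24 to 0.14 in Hsp90ab1, -0.48 to 0.35 in Dnajb1, -0.32 to 0.12 in Dnaja1, -0.44 to 0.18 in Hspa8, -0.12 to 0.35 in Hsp90aa1, -0.68 to 0.70 in Hspe1 and -0.01 to 0.23 in Hsph1, and the replicate difference in Hspd1, on number alone, from -0.05 to 0.14. With treatment kept, leaving out PBS 1 or PBS 2 reduces the replicate difference to TSLP 1 against TSLP 2, an alternative chosen after seeing the data, and Hspe1 was then at -0.33, with no test. The labels do not pair libraries of the same number, whose deviations across genes correlated at 0.001. With a replicate block in limma, 258 genes had an unadjusted p under 0.05 for TSLP, 0 members among them, and the members' median stayed at -0.06. Each count of calls rests on 2 libraries per group, and the intervals and the limit for a count of 0 cover counting error only.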
